A study of Rattus norvegicus with 42 samples.

Results

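The transcripts described here are those of 8 genes of antigen presentation and its T cell receptor partner, Cd74, Cd4, B2m, RT1-Da, RT1-Ba, RT1-Bb, RT1-Db1 and Ciita, in the hippocampus of neonatal rats given an anti-seizure drug. They were found by gene symbol, and all 8 symbols were present, as 9 of the 15516 transcripts in the deposited counts, since Ciita is listed as 2 transcripts. The genes were chosen by symbol after the fold changes and adjusted p of the phenobarbital comparison had been seen, so that comparison is given for them as a description without a test.

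MHC class II molecules are pairs of an alpha and a beta chain that carry peptides from taken-up proteins to the surface of antigen-presenting cells, where CD4 on a T helper cell binds them. In the rat the class II chains are encoded in the RT1 complex, RT1-Ba and RT1-Bb for the B molecule and RT1-Da and RT1-Db1 for the D molecule. Cd74 encodes the invariant chain, which holds the peptide groove shut until the molecule reaches the endosome, and Ciita encodes the co-activator that switches on these genes together. B2m encodes the light chain of MHC class I, the molecule that most cells use to show peptides from their own proteins. In brain tissue class II and Cd74 are known from microglia and from macrophages at its borders, and rat microglia and macrophages also carry CD4.

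Male Sprague Dawley pups, an outbred stock, received 1 intraperitoneal injection of saline vehicle (VEH), 75 mg/kg of phenobarbital (PB), a barbiturate, or 200 mg/kg of levetiracetam (LEV), which binds a synaptic vesicle protein, on postnatal day 7. The hippocampus was taken 72 h later from animals perfused with cold buffer, and 1 library was made per animal, so each value is that of 1 pup, with 1 pup per litter in a treatment group. Treatments were balanced within litters, so litters span the groups. Which animals shared a litter is not given in the labels, and litter is not in the fit. After removal of the VEH animal that the labels mark as excluded, 13 VEH, 14 PB and 14 LEV animals were compared. The animals came in separate orders and 2 forms of sample code, with 2 letters (animals 1 to 6 of each group) or 1 letter (animals 7 to 14), which were used as the batch and are the only such label; what the code stands for is not given in the sources used here. Totals per animal ranged from 9499492 to 14488134 estimated counts, and a normalized count is the rounded count scaled to the mean effective library size of 11405252. VEH animal 1 had 0 and 1 counts of the Y-linked transcripts Ddx3 and Eif2s3y, where the other 40 animals had 475 to 891 and 705 to 1028, which goes against its label as male. Without it Cd74 differed between PB and VEH by 0.59 and Cd4 by 0.54 on the log2 scale, against 0.61 and 0.55 with it.

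The promoters of the class II genes hold the boxes through which they are switched on together. They are shown here as background, and their part in the counts was not tested. RFX proteins bind the X box, NF-Y binds the Y box, and the CIITA protein, which does not bind DNA itself, is recruited to them. Sequences of RefSeq (build GRCr8) were matched for 6 of the 8 genes, all but Cd4 and Ciita. The window printed for each runs from 160 to 21 bases before the annotated start, 5′ to 3′ on the strand of the gene. Capitals mark the Y box octamer CTGATTGG, the CCAAT box on either strand (ATTGG or CCAAT), the X box core GCAAC, the cyclic AMP element core TGACG and an interferon-stimulated element, written here as GAAA and again GAAA with any 2 bases between, each on either strand. In RT1-Ba the element core stands on both strands with an overlap, as TGACGTCA. The windows lie at chr20:4515255-4515394 (plus strand), chr20:4560183-4560322 (minus strand), chr20:4576897-4577036 (plus strand), chr20:4604139-4604278 (minus strand), chr18:56527046-56527185 (plus strand) and chr3:129549170-129549309 (plus strand).
RT1-Da: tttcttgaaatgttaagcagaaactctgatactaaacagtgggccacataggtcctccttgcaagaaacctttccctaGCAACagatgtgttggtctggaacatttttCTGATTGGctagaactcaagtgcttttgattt
RT1-Db1: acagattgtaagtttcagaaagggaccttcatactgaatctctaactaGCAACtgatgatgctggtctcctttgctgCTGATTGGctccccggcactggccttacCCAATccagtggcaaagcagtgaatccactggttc
RT1-Ba: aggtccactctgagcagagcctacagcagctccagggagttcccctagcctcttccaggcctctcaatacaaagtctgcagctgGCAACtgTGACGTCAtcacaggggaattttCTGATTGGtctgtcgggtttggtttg
RT1-Bb: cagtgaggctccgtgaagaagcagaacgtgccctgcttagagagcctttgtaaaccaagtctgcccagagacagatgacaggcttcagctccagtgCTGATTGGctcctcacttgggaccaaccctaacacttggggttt
Cd74: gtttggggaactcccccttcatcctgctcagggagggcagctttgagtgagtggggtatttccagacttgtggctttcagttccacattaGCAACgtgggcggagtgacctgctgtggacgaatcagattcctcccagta
B2m: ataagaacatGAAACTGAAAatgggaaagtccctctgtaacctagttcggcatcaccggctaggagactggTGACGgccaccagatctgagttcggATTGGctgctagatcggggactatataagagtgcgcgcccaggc

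The octamer CTGATTGG stood in all 4 class II promoters, 52 bases before the start in RT1-Da, 83 in RT1-Db1, 46 in RT1-Ba and 64 in RT1-Bb. On both strands it occurred in 3.5% of the 33469 promoters. The shares given here and the matches in these genes come from whole promoter sequences, which are longer than the printed windows. It contains the CCAAT box, which 37.5% of all promoters held and which was present in all 6, in Cd74 only 189 bases before the start and so outside the printed window. The X box core GCAAC, held by 35.1% of promoters, lay 30 bases before the octamer in RT1-Da and in RT1-Ba and 29 bases before it in RT1-Db1. Cd74 held GCAAC 70 bases before its start without the octamer, and RT1-Bb held the octamer without these 5 letters. TGACG, in 21.2% of promoters, was found in RT1-Ba and B2m, and the interferon-stimulated element, in 3.92%, was found in B2m, 150 bases before the start. Such matches describe letters in these promoters and no binding was measured.

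Only 3 of the 9 transcripts, Cd74, Cd4 and B2m, had enough counts to enter the test of 13062 transcripts. The class II chains and Ciita stayed under the filter in every group, with at most 24 estimated counts in any animal. After PB, Cd74 and Cd4 stood about 1.5-fold above VEH (1.53-fold and 1.46-fold), and B2m stood at 0.951-fold. Both of the former lay past the limits of the study, an adjusted p of 0.05 and a change to at least 25% above or 20% below the other group. Those limits were passed by 0.605% of all tested transcripts between PB and VEH, and by 0.345% in the upward direction. Since this contrast led to the choice of genes, nothing is read from that count. Cd74 no longer passed with DESeq2, which gave it no adjusted p, with 1-letter codes alone or with the animal number as a block, Cd4 no longer passed with all 14 VEH animals, and neither passed with 2-letter codes alone. After LEV 0 of the 3 passed them, by edgeR or by DESeq2, where 0% of all transcripts did by edgeR and 763 had an unadjusted p under 0.05.

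Cd74, the invariant chain (chr18:56071478-56080852, rn6), ranged in VEH animals from 13.9 to 29.2 normalized counts, with a median of 19.2. In PB animals it ranged from 12.5 to 51.3 with a median of 27.5, and in LEV animals from 15.4 to 42.7 with a median of 21.3. PB animals were mostly high, 12 of 14 lying above the VEH mean of their code form and 6 above the highest VEH animal, yet the lowest of all 41 animals was also a PB animal (animal 12). The mean was 19.8 ± 4.35 (SD, n = 13) after vehicle, 30.1 ± 10.4 (n = 14) after PB and 24.2 ± 8.13 (n = 14) after LEV, with a larger SD after either drug. The log2 fold change of PB against VEH was 0.61 with a standard error of 0.17. Against LEV, which shares the PB animals with that comparison, PB differed by 0.31 (standard error 0.16). The values rest on few reads, 12 to 49 estimated counts per animal.

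LEV animals lay between the other groups for Cd74. Of them, 9 of 14 were above the VEH mean of their code form and 4 above the highest VEH animal. The log2 difference of 0.30 (standard error 0.17, 95% interval -0.03 to 0.64) did not pass the test (adjusted p = 0.856, quasi-likelihood test of edgeR). The interval reaches the size seen after PB, so these counts do not part a smaller difference from none.

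Cd4, the co-receptor that binds class II (chr4:157383052-157408177, rn6), ranged from 32.6 to 58.5 normalized counts in VEH animals, with a median of 43.5. In PB animals it ranged from 36.1 to 99.9 with a median of 73.3, and in LEV animals from 16.3 to 62.1 with a median of 47.8. In PB 9 of 14 animals lay above the highest VEH animal and none below the lowest, while LEV animals lay on both sides of VEH. The mean was 45.0 ± 8.78 (SD, n = 13) after vehicle, 66.9 ± 21.2 (n = 14) after PB and 44.4 ± 13.5 (n = 14) after LEV. The log2 fold change was 0.55 (standard error 0.13) for PB against VEH and 0.60 (standard error 0.13) for PB against LEV, where 0.582% of all transcripts passed both limits. For LEV against VEH it was -0.05 (standard error 0.14, 95% interval -0.32 to 0.21, adjusted p = 0.989 by edgeR), with 5 of 14 animals above the VEH mean of their code form. In bulk tissue, more cells of a type and more RNA per cell cannot be told apart.

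The PB difference in Cd4 was spread unevenly over the animals. Among animals with 1-letter codes, 7 of 8 PB animals (72.9 to 90.2) lay above the highest VEH animal (58.5), and the eighth, animal 12, had 52.1. Among animals with 2-letter codes, PB animals 1 and 2 had 71.7 and 99.9, and the other 4 lay at 36.1 to 45.8, within or just above the VEH range of 32.6 to 43.5. The fitted differences of PB against VEH were nonetheless alike, 0.54 (standard error 0.27) with 2-letter codes and 0.56 (standard error 0.11) with 1-letter codes. PB animal 12 thus had the lowest Cd74 of all animals and the lowest Cd4 of its code form in PB, and PB animal 2 had the highest Cd4 of all animals beside 25.2 for Cd74.

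**Figure D1:**
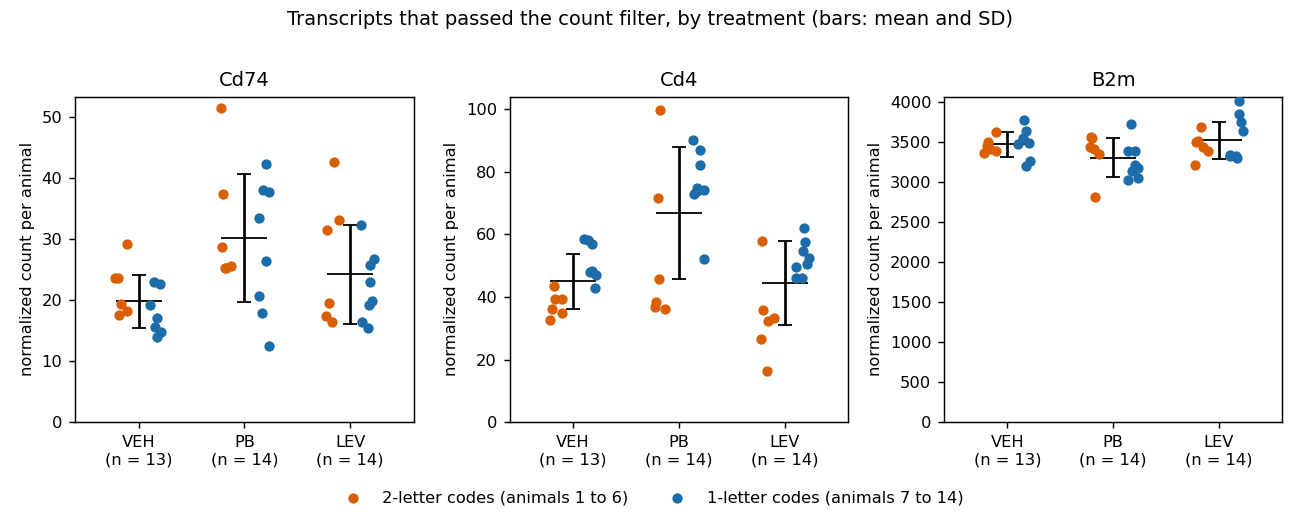
Normalized counts of Cd74, Cd4 and B2m per animal (vertical axes, from 0) in VEH, PB and LEV, with 2-letter and 1-letter sample codes in different colours, and the mean and SD of each group as bars. Cd4 reached 99.9 in PB against at most 58.5 in VEH, and B2m lay between 2815 and 4007 in all 41 animals.

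Cd4 also differed between the forms of sample code. It stood at 42.0 ± 18.6 (SD, n = 18) normalized counts in animals with 2-letter codes and at 60.3 ± 14.2 (n = 23) with 1-letter codes. The log2 difference of 2-letter from 1-letter animals was -0.52 (standard error 0.11, adjusted p = 0.00033, edgeR), about as large as the difference between PB and VEH. It passed both limits in a comparison where 4.12% of all tested transcripts did, and 1.67% in the downward direction. Cd74 did not pass (log2 difference 0.23, standard error 0.14, adjusted p = 0.213), nor did B2m (-0.01, standard error 0.03, adjusted p = 0.916). Transcripts of red blood cells moved with the same code, 5 of 6 being higher with 2 letters (median log2 difference 2.56), and of 22 microglia identity transcripts 2 were higher and 9 lower by adjusted p, which 30.2% of all transcripts passed. Over 10 alternative fits, among them a fit with the summed microglia counts as a covariate, the Cd4 difference ranged from -0.633 to -0.411. The part of red blood cells in it was not tested.

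The effect of LEV did not differ detectably between code forms for Cd74 (difference of log2 fold changes -0.02, standard error 0.35, adjusted p = 0.989), Cd4 (-0.19, standard error 0.28, adjusted p = 0.833) or B2m (-0.03, standard error 0.07, adjusted p = 0.888), by edgeR's interaction test. Of all transcripts 0.842% passed that test. The standard errors for Cd74 and Cd4 leave room for differences as large as the PB effect itself. For PB the same differences were -0.11 (standard error 0.34) for Cd74, -0.02 (0.28) for Cd4 and 0.05 (0.07) for B2m.

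**Figure D2:**
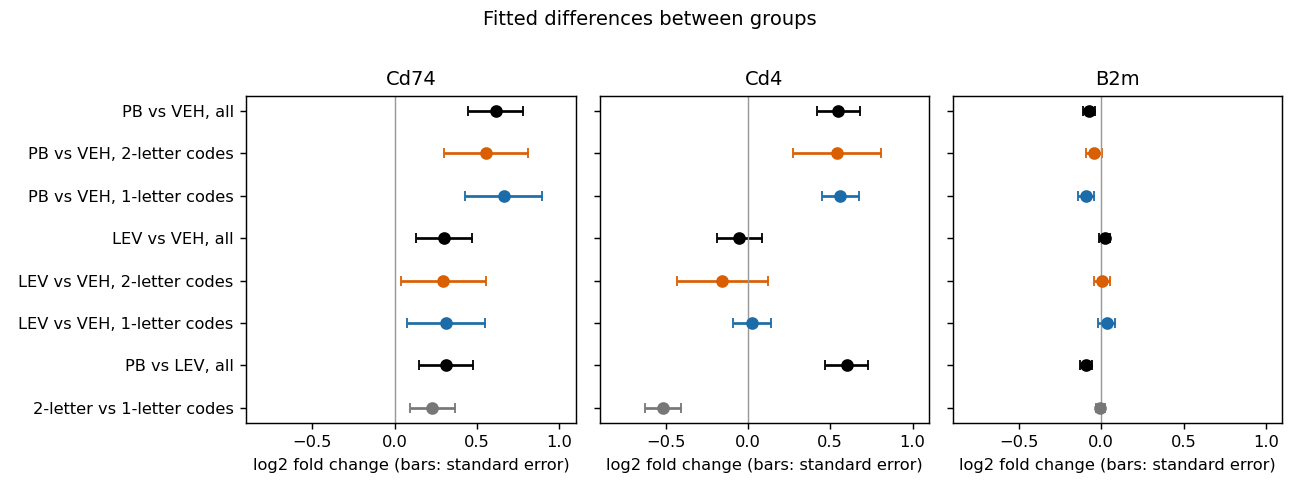
Fitted log2 fold changes of Cd74, Cd4 and B2m (horizontal axes) for each comparison, over all animals and within each form of sample code, with standard errors as bars. PB against VEH lay at 0.54 to 0.66 for Cd74 and Cd4 in both code forms, and the B2m points lay close to 0.

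B2m, the class I light chain (chr3:114087287-114093312, rn6), was measured far more precisely. It ranged from 3203 to 3773 normalized counts in VEH (median 3473), from 2815 to 3719 in PB (median 3365) and from 3212 to 4007 in LEV (median 3468). PB animals tended low, 11 of 14 lying below the VEH mean of their code form and 5 below the lowest VEH animal. The means were 3471 ± 155 (SD, n = 13), 3302 ± 244 (n = 14) and 3519 ± 236 (n = 14). The log2 fold change of PB was -0.07 (standard error 0.04) against VEH and -0.09 (standard error 0.04) against LEV, opposite in sign to Cd74 and Cd4. LEV differed from VEH by 0.02 (standard error 0.04, 95% interval -0.05 to 0.09, adjusted p = 0.989, edgeR), which leaves out any change past the fold limit in either direction.

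The D molecule chains were detected at a few reads in almost every animal. RT1-Db1, the beta chain (chr20:4087621-4097192, rn6), had 2 to 13 estimated counts in VEH (median 7), 1 to 13 in PB (median 7) and 2 to 15 in LEV (median 6.5). RT1-Da, the alpha chain (chr20:4127644-4132617), had 1 to 12 in VEH (median 4), 0 to 15 in PB (median 6) and 0 to 12 in LEV (median 5.5). The 3 groups overlapped almost wholly for both. When no filter was used, RT1-Da differed between PB and VEH by 0.39 on the log2 scale (standard error 0.40) and RT1-Db1 by -0.03 (standard error 0.30). For LEV against VEH the values were 0.03 (standard error 0.41) and 0.01 (standard error 0.30), with adjusted p of 0.994 and 0.999 by edgeR.

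The B molecule chains behaved differently, being near 0 in many animals and well above it in others of the same group. RT1-Bb, the beta chain (chr20:4043726-4049368), had 0 counts in 19 of 41 animals (6 VEH, 7 PB and 6 LEV), for which a count of 0 allows up to 3 counts, and reached 16 in VEH, 15 in PB and 15 in LEV. RT1-Ba, the alpha chain (chr20:4066133-4070727), had 0 or 1 counts in 13 of 41 animals (4 VEH, 5 PB and 4 LEV) and reached 24, 20 and 23. Low and high animals thus occurred in every group. The variance over the 41 animals was 6.98 times the mean for RT1-Ba and 6.52 times for RT1-Bb, but 1.66 times for RT1-Db1 and 2.54 times for RT1-Da. Differences between groups were within wide errors, with log2 values without a filter of -0.07 (standard error 0.58) for RT1-Ba and -0.55 (standard error 0.73) for RT1-Bb between PB and VEH. For LEV against VEH they were 0.26 (standard error 0.58) and 0.24 (standard error 0.69), both with an adjusted p of 0.986 by edgeR.

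**Figure D3:**
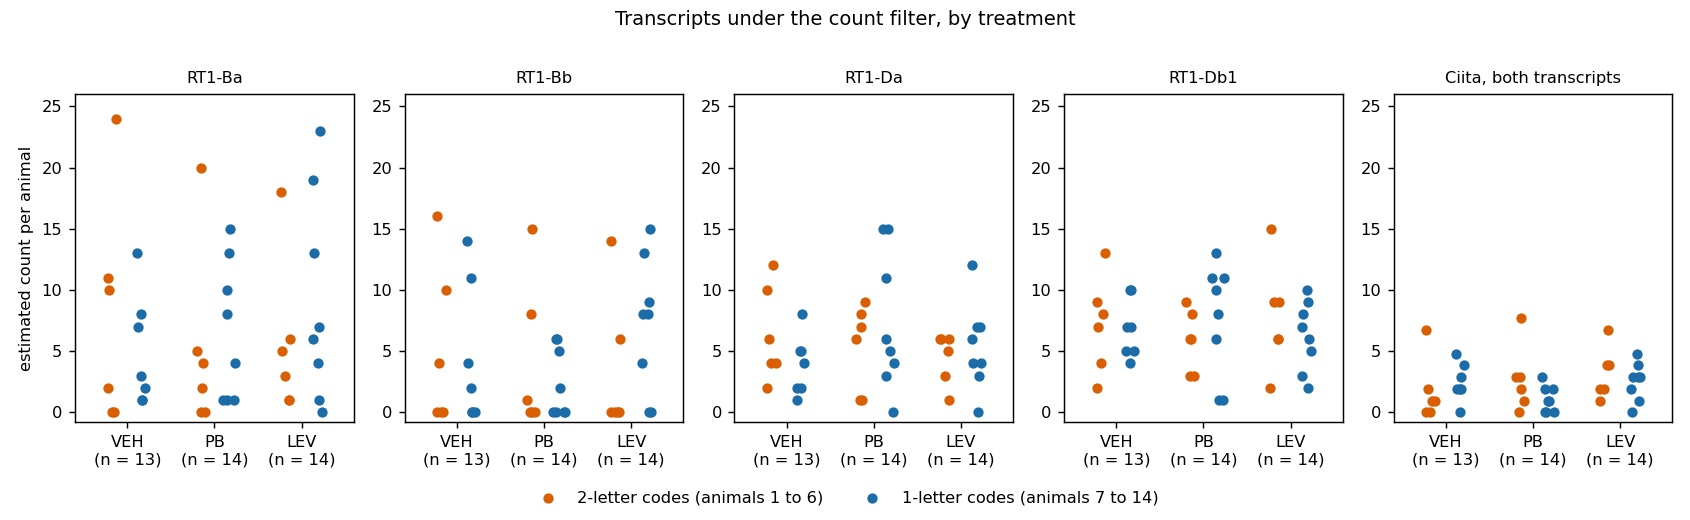
Estimated counts per animal (vertical axes) of RT1-Ba, RT1-Bb, RT1-Da, RT1-Db1 and the sum of both Ciita transcripts, by treatment and form of sample code. All values lie between 0 and 24, and RT1-Bb is at 0 in 6 VEH, 7 PB and 6 LEV animals.

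The high animals were largely the same for neighbouring genes of the B region. With at least 5 counts taken as high, RT1-Bb and RT1-Ba were both high in 14 animals and both below in 19, with 2 animals high for RT1-Bb alone and 6 for RT1-Ba alone. All 20 animals high for RT1-Ba were also high for RT1-DOb, the beta chain of the DO molecule that restrains peptide loading, next to them on chromosome 20 of rn6, and a further 4 were high for RT1-DOb alone. All 16 animals high for RT1-Bb were high for RT1-DOb. Each treatment group held both kinds, with 4 of 13 VEH, 4 of 14 PB and 6 of 14 LEV animals high for RT1-Ba and RT1-Bb. RT1-Da of the D molecule followed RT1-Ba less closely. Of the 20 animals high for RT1-Ba, 14 were high for RT1-Da and 6 were not, and among the other 21 the numbers were 9 and 12. For RT1-Db1, the other D chain, the numbers were 15 and 5 among the 20, and 16 and 5 among the other 21.

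The limit of 5 counts was set here and does not mark a gap between separate sets of animals. RT1-Ba, for example, had 4 counts in PB animal 2, 5 in PB animal 4 and 6 in LEV animal 1. No correlation over all animals is given for these genes. Reads were aligned to 1 reference genome, that of the inbred BN strain, while Sprague Dawley rats are outbred and the RT1 genes are among the most variable in the rat. Whether the animals of low count carried other alleles was not tested. Reads that could belong to more than 1 RT1 gene were divided by the authors' algorithm, so the level of each chain is uncertain. RT1-DMa and RT1-DMb, which encode the molecule that swaps the peptides, are each listed at 2 positions between which reads were divided in this way.

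**Figure D4:**
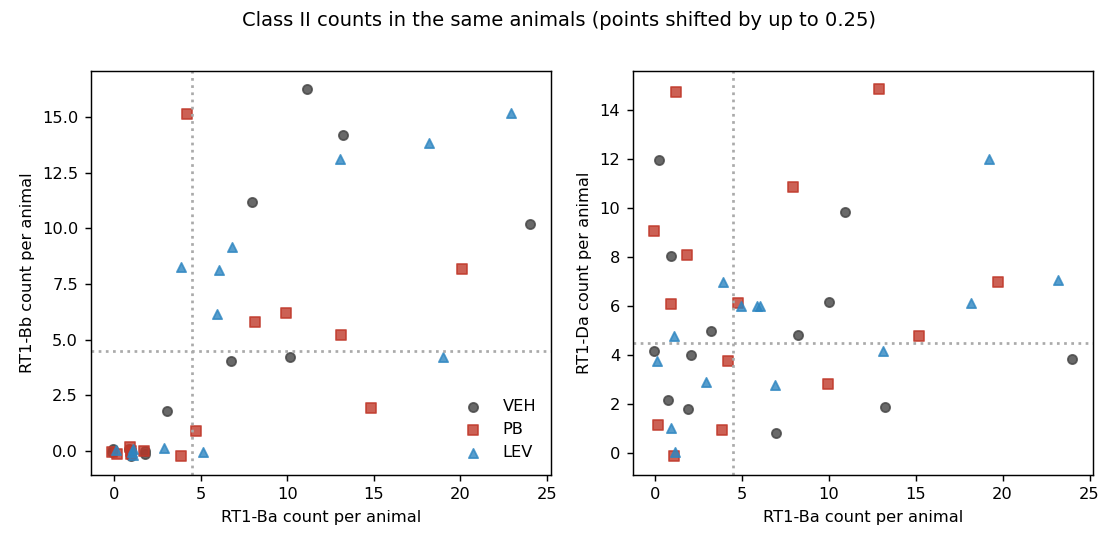
Estimated counts of RT1-Bb (left) and RT1-Da (right) against those of RT1-Ba in the same 41 animals, marked by treatment, with dotted lines between 4 and 5 counts. RT1-Bb and RT1-Ba are both high in 14 animals and both low in 19, and each group has animals of both kinds.

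Ciita, the co-activator of class II (chr10:5213350-5253337 and 5213350-5251810), was close to the limit of detection. The estimates of its 2 transcripts stood in the same ratio, 0.497, in every animal with any, so they are 1 set of reads divided in a fixed proportion and not separate measurements. Their sum ranged from 0 to 7.68 estimated counts per animal, was 0 in 8 of 41 animals and came to 92.1 over all of them, and the groups overlapped wholly. Each transcript was tested rounded, at 0 to 3 and 0 to 5 counts per animal. Without a filter, LEV differed from VEH by 0.26 (standard error 0.52) and 0.48 (standard error 0.46) on the log2 scale, with adjusted p of 0.986 and 0.938 by edgeR. For PB against VEH the values were -0.21 (standard error 0.55) and -0.16 (standard error 0.49). A 2-fold difference in at least 1 direction lay within each of these 95% intervals, so it was not detectable at this depth.

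Whether Cd74, Cd4 and B2m varied together across animals was examined after the mean of each treatment and code form was taken off. Cd74 had only 12 to 49 estimated counts per animal, and counting error at such depth weakens these relations. A low r for Cd74 therefore does not show that it varied apart from another gene. On log2 CPM, Cd74 and Cd4 had r = 0.22 (permutation p = 0.262, n = 41) and Spearman's rho = 0.17 (p = 0.329), and r = 0.13 without the 2 animals farthest from the median of Cd74. Cd74 and B2m had r = 0.09 (permutation p = 0.619) and rho = 0.02 (p = 0.885), and r = 0.03 without those animals. Cd4 and B2m had r = -0.14 (permutation p = 0.461) and rho = 0.06 (p = 0.706), and r = 0.21 without PB animal 2 and LEV animal 3. The 15 relations examined also set each of the 3 genes against the summed counts of 4 marker lists. None had an adjusted p under 0.05, the largest in size being that of Cd74 with choroid plexus markers (r = 0.26, permutation p = 0.132, adjusted p = 0.563, rho = 0.28, p = 0.0944). Without PB animal 12 and LEV animal 5 that relation had r = 0.34, with a permutation p of 0.0474 that was not adjusted over the 15 relations.

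The transcripts whose pattern was most like each gene were found among all tested transcripts by Pearson's r over 41 animals, after removal of the same means. For Cd74 they were Crabp2, a retinoic acid binding protein (r = 0.58), C1qtnf1, a secreted C1q-related protein (0.58), and Tagln, an actin binding protein of smooth muscle (0.58). For Cd4 they were Snapin (0.65), Pdgfc (0.61) and Atf7ip (0.60). These 3 values came mainly from animals with 2-letter codes, where r was 0.84, 0.81 and 0.82, against 0.39, 0.18 and 0.16 with 1-letter codes. For B2m they were Ndufc2 (0.76), Uqcrq (0.75) and Cox8a (0.75), subunits of the mitochondrial respiratory chain, with 0.71 to 0.82 in either code form. The points share libraries and depth, and each trio is the top of 13062 values.

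The other genes of the pathway were taken from lists of known members. The list of class II loading also holds genes with other roles, such as Cd44 and Mif, and counts RT1-DMa and RT1-DMb at each of their positions. Of its 17 tested transcripts, 0 passed both limits between PB and VEH (median log2 fold change -0.02, against 0.01 over all tested transcripts), where 0.605% of all transcripts did. By adjusted p alone Cd44, a surface partner of Cd74, was higher after PB (167.7 ± 23.6 in VEH and 206.7 ± 34.8 in PB, SD, a log2 difference of 0.30 with a standard error of 0.09, edgeR adjusted p = 0.0398), among 5.39% of all transcripts. The most abundant of this list, the proteases Ctsb and Ctsd and the cytokine Mif, a ligand of Cd74, had PB log2 fold changes of -0.02, -0.06 and -0.06 with adjusted p of 0.813, 0.518 and 0.515. Mif and the protease Ctss were higher with 2-letter codes (0.40, adjusted p = 2.72e-11, and 0.16, adjusted p = 0.0227).

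Of 21 tested transcripts of class II transcription, 0 passed both limits or adjusted p alone between PB and VEH, with a median of 0.07. Among them, and named because of the promoter boxes, the X box factors Rfx5, Rfxank and Rfxap had -0.03, 0.23 and 0.11 (adjusted p = 0.81, 0.221 and 0.173). Rfxap had the same values at both of its listed positions. The Y box factors Nfya, Nfyb and Nfyc had 0.16, 0.12 and 0.02 (adjusted p = 0.363, 0.183 and 0.872). In the interferon response list 0 of 17 passed both limits, with a median of 0.10. By adjusted p alone Ifit2 was lower after PB (90.7 ± 10.8 in VEH and 74.8 ± 17.4 in PB, a log2 difference of -0.29 with a standard error of 0.09, adjusted p = 0.0475). The most abundant of this list, Ifi27, Stat2 and Irf9, had -0.22, -0.01 and 0.03 (adjusted p = 0.069, 0.91 and 0.851).

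For MHC class I and its peptide loading, in which B2m takes part, 0 of 33 tested transcripts passed both limits or adjusted p alone between PB and VEH, with a median of 0.06. The chaperones Canx, Calr and Pdia3, the most abundant of them, had -0.01, 0.12 and 0.06 (adjusted p = 0.929, 0.235 and 0.414). In these 4 lists, 0 transcripts passed between LEV and VEH, where 0 of all transcripts passed both limits, 1 passed adjusted p alone (0.00766%) and 763 had an unadjusted p under 0.05 (5.84%). The medians for LEV were 0.01, 0.02, -0.02 and -0.01 in the order given.

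**Figure D5:**
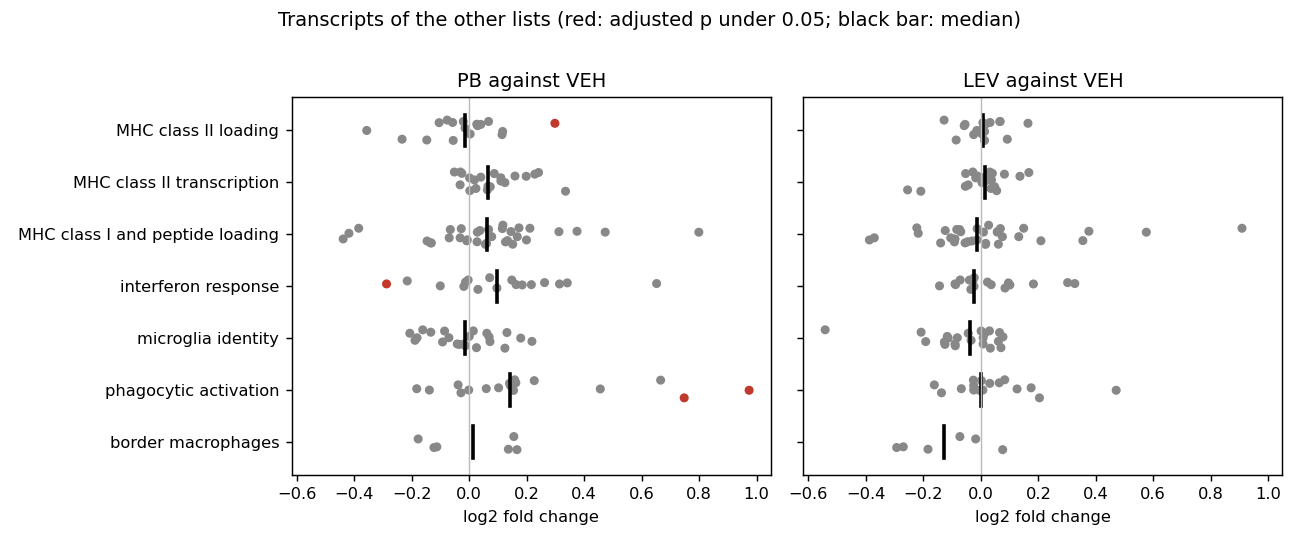
Log2 fold change (horizontal axes) of every tested transcript of 7 lists for PB and LEV against VEH, with the median of each list as a black bar and transcripts with an adjusted p under 0.05 in red. The red points are Cd44, Ifit2, Spp1 and Cd68 after PB, and none after LEV.

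Markers of the cells that could carry these transcripts were examined in the same libraries. Of 22 tested microglia identity transcripts, 0 passed both limits or adjusted p alone between PB and VEH (median -0.02) or between LEV and VEH (median -0.04). Their summed normalized counts ranged from 4143 to 4857 in VEH, 3756 to 4998 in PB and 3828 to 4936 in LEV. Csf1r and Sall1, among the most abundant, had PB log2 fold changes of -0.01 and 0.06 (adjusted p = 0.912 and 0.454). In the phagocytic list Cd68, a lysosomal protein of active microglia, and Spp1, osteopontin, rose after PB (log2 fold changes 0.97 and 0.75, adjusted p = 0.00064 and 0.0322), 2 of 17 tested where 0.605% of all transcripts passed both limits, and 0 passed after LEV, where 0% of all did. The list was chosen with earlier results of these data known, Cd68 among them, so nothing is read from its count or its adjusted p values after PB.

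Border macrophage markers, the other resident source of class II, gave 0 of 6 after either drug, with summed counts of 468.1 to 696.1 in VEH, 463.4 to 808.8 in PB and 475.8 to 768.2 in LEV, and with Ms4a7 at a median count of 0. T cell markers were scarce, with Cd2 and Cd8a at a median count of 0 and only Zap70 and Lck tested, of which 0 passed. The B cell marker Blk was likewise at a median count of 0, and Cd22, the only one of its list tested, did not pass after PB (0.44, standard error 0.26, adjusted p = 0.355). None of 4 dendritic cell transcripts passed, nor did Lyz2, the only tested transcript of blood monocytes and neutrophils, in which Mpo was at a median count of 0. The summed T cell list, almost all of it Zap70 and Lck, ranged from 166.0 to 250.5 in VEH, 171.9 to 228.8 in PB and 175.5 to 242.2 in LEV.

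Markers of the choroid plexus, which lies beside the hippocampus, varied strongly among the libraries. They summed to between 281 and 88030 normalized counts, with a median of 3073 after vehicle, 8917 after PB and 22800 after LEV, and 0 of 10 passed after either drug (median log2 fold change 0.61 for PB and 0.71 for LEV). Their part in the values of Cd74 and Cd4 after PB was not tested. Of the remaining lists, 0 of 6 red blood cell, 0 of 10 meningeal fibroblast, 0 of 8 endothelial and 0 of 8 hippocampal neuron transcripts passed both limits or adjusted p alone between PB and VEH or between LEV and VEH. The neuron markers of the labelled tissue were abundant, with Slc17a7, the vesicular glutamate transporter, at 13300 normalized counts on average.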

How the data were processed

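RNA sequencing covered the hippocampi of 42 rat pups. The authors trimmed the reads, aligned them to rn6 with STAR 2.7.3a and estimated how many belonged to each RefSeq transcript (Partek E/M). The deposited estimated counts (13.4% not whole) carry no normalization or batch correction and were rounded here. The authors' table of their own comparisons (p values, fold changes and group means) was not used. Transcript lengths were not used here, so levels are not compared between genes.

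The counts were normalized by TMM in edgeR 4.0.16 (R 4.3.3), and filterByExpr by treatment kept 13062 of 15516 transcripts. A single model of treatment and form of sample code was fitted with glmQLFit and glmQLFTest, its p values were adjusted by Benjamini-Hochberg over all of them, and the fit was tested on simulated data. Calls needed an adjusted p under 0.05 and a value at least 25% above or 20% below the other group. Intervals are 95%. Relations across animals used log2 CPM (prior count 2), with 100000 permutations (two-sided) within treatment and code form. DESeq2 1.42.0 was an alternative.

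The genes and lists were chosen with earlier results of these data known. Of each list the text names transcripts with an adjusted p under 0.05 in a comparison, the 3 most abundant and defining markers that were absent, apart from some not reported here. Those that differed only between code forms are named in part. The X and Y box factors and the RT1-DM and RT1-DO chains lie outside this rule and were named after their values were seen. For each tested gene the 3 transcripts of most similar pattern are named.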

Additional observations from a re-analysis of the deposited data

Results flagged for a closer look

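Of 54 groups of 6 to 8 animals (9 transcripts, each within treatment and code form), 6 held an animal far from the rest. The limit used is passed by about 1 in 20 groups of normally distributed, independent values. Counts near 0 are not such values, and both Ciita transcripts hold the same reads, so nothing is read from the number 6. B2m was 2815 normalized counts in PB animal 2, against 3347 to 3565 in the other PB animals with 2-letter codes, and this animal also had the highest Cd4. Cd4 was 52.1 in PB animal 12, against 72.9 to 90.2 in the other PB animals with 1-letter codes. RT1-Ba was 17.1 in LEV animal 2 against 1.02 to 5.88 in the others of its group, and 19.8 in PB animal 5 against 0 to 4.49. The Ciita transcripts reached 2.91 in PB animal 2 (others 0 to 0.99) and 3.35 in VEH animal 5 (others 0 to 1.12), which are differences of a few reads and depend on the rounding of each transcript, since both hold the same reads in a fixed ratio.

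The excluded VEH animal, number 7, had 161 estimated counts of Cd4, above the 29 to 61 of the other VEH animals and above the highest of all 41 animals, 103. Its B2m count of 2315 was below their range of 2930 to 4381, and its Cd74 count of 18 was within their 13 to 29.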

How the results depend on the processing

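Of Cd74 and Cd4, called between PB and VEH, 1 remained called with DESeq2 (Cd74 0.62, no adjusted p), with a mean of at least 50 counts (Cd74 was not tested), with 1-letter codes alone (Cd74 0.66, adjusted p = 0.105), with all 14 VEH animals (Cd4 0.34, adjusted p = 0.289) and with the animal number as replicate block (Cd74 0.61, adjusted p = 0.0525). With 2-letter codes alone 0 were called (Cd74 0.56, Cd4 0.54, adjusted p = 0.396 and 0.436). Between PB and LEV the 1 call, Cd4, fell to 0 with 2-letter codes alone and with all 14 VEH animals (Cd4 0.69 and 0.60, adjusted p = 0.228 and 0.0622, against 0.60 in the fit reported). The causes were not tested, except that a code form alone holds fewer animals. Leaving out each animal in turn left the number of genes called at 2 between PB and VEH, 0 between LEV and VEH, 1 between PB and LEV and 1 between code forms, with Cd74 at 0.54 to 0.67 and Cd4 at 0.45 to 0.59 for PB against VEH. The genes were chosen from PB against VEH, and PB against LEV shares the PB animals. The refits of these 2 comparisons therefore describe only the dependence on processing and are no test of a difference. Among transcripts of the antigen presentation and interferon lists, 0 were called between PB and VEH. This count was 1 with 1-letter codes alone, 2 with no fold limit, and 0 to 1 when 1 animal was left out (1 without PB animal 5, 6, 9 or 10). Between LEV and VEH it was 1 with 2-letter codes alone. Same-numbered animals did not deviate together (40 pairs, r -0.33 to 0.33, 10 over 0.1, and 3 of 41 animals correlating best with their own number), so the numbers were not taken as pairs. Pairing by litter could not be examined, since the labels do not name the litters. Values near 0 changed sign. For Cd4 between LEV and VEH they were 0.024 with 1-letter codes alone and, when 1 animal was left out, -0.127 to 0.006 (0.006 without LEV animal 3). For B2m between code forms they were 0.013 with all 14 VEH animals and with the microglia sum as covariate, and -0.013 to 0.006 when 1 animal was left out (0.001 without VEH 9, LEV 4 or LEV 8, 0.003 without PB 10, 0.004 without LEV 14, 0.006 without PB 2). Without subtraction of group means, 2 of 15 relations passed (0 otherwise), Cd4 with microglia (r = 0.464) and with red blood cells (-0.438), both with an adjusted p of 0.0302, and these also hold the difference between code forms. Signs also turned, none passing, for Cd74 with B2m (-0.091), microglia (-0.064) and red blood cells (0.136) and Cd4 with border macrophages (0.103). With Spearman they turned for Cd4 with B2m (0.063) and border macrophages (0.022), with 2-letter codes alone for Cd74 with red blood cells (0.403), Cd4 with choroid plexus (-0.064) and B2m with microglia (-0.183), and with 1-letter codes alone for Cd4 with B2m (0.342) and border macrophages (0.307) and B2m with choroid plexus (-0.114).

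Depth limits the class II chains and Ciita, for which 0 to 24 counts per animal leave standard errors of 0.30 to 0.73 on the log2 scale between PB and VEH, and Cd74, with 12 to 49 counts.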
